A study of Caenorhabditis elegans with 6 samples.

Results

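The genes described here are the spindle, kinetochore and centrosome genes of *Caenorhabditis elegans*, taken by gene name. A gene was included when its symbol began with *knl*, *kbp*, *hcp*, *klp*, *bub*, *mdf*, *san*, *spd*, *sas*, *air*, *zyg*, *cls* or *plk* followed by a number, and 53 of the 19933 genes in the deposited table met this rule. Names given for a mutant phenotype also brought in genes of other functions, which are marked as such.

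RNA-seq compared embryos of N2 wild-type hermaphrodites fed HT115 bacteria that carried the empty vector (EV), as the negative control, with embryos of N2 hermaphrodites fed bacteria that targeted *pri-1*, which encodes a subunit of DNA primase, by RNA interference (RNAi). In both groups, cultures started from synchronized first-stage larvae stayed on these bacteria for 96 h (at 20 °C), and the eggs laid were then collected in bulk. Each group had 3 libraries, numbered as replicates in the labels and described in the study as separate experiments.

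The kinetochore is the protein assembly on each chromosome that binds spindle microtubules. In *C. elegans*, whose chromosomes are holocentric, it forms along the whole length of the chromosome, on chromatin that holds a centromeric histone H3. The outer layer binds microtubules and is the platform of the spindle checkpoint, which delays anaphase until chromosomes are attached. Centrosomes, built from centrioles and the pericentriolar material around them, nucleate most spindle microtubules in the embryo, and much of the machinery of the first divisions is loaded into the egg by the mother.

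Expression values are CPM, the reads of a gene scaled to a library total of 1000000. Of the 53 genes, 52 reached 0.5 CPM in at least 3 libraries and were tested with limma on log2(CPM + 0.5). Among them, 7 were higher in *pri-1* RNAi at a Benjamini-Hochberg adjusted p under 0.05, which is 13.5% against a background of 17.3% of all 14801 tested genes. A single gene, *sas-1*, was lower, which is 1.92% against a background of 9.94%. The 8 genes that passed are 15.4% of 52, against 27.3% of all tested genes, and the share was below the background in both directions. The genes that rose were *bub-1*, *cls-2*, *zyg-9*, *klp-19*, *plk-1*, *plk-2* and *hcp-3*, which act at the kinetochore, on microtubules or as mitotic kinases, and their mean CPM was between 1.53 and 3.03 times that of the EV group.

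The other 44 tested genes did not pass. Counting all 52, the estimate was above 0 for 36 genes and below 0 for 16, and the median log2 fold change was 0.40, against -0.01 over all tested genes. This median depended strongly on single libraries, and that of all tested genes moved in the same direction. Without EV replicate 3 the median of the 52 genes was 0.03 with 26 above 0 (-0.23 over all tested genes). Without *pri-1* RNAi replicate 1 it was 0.16 with 29 above 0 (-0.11 over all). With a trimmed mean, median centring and quantile normalization it was 0.33, 0.62 and 0.52 (-0.07, 0.20 and -0.06 over all). Without each of the other libraries it lay between 0.40 and 0.59. At an unadjusted p under 0.05, 12 of 52 passed (23.1%), against 39.5% of all tested genes. In 13 genes all 3 *pri-1* RNAi libraries were above all 3 EV libraries, which is 25% against a background of 25.4%, and in 3 genes they were below, which is 5.77% against 19.8% (30.8% against 45.2% in either direction). Other scalings gave 8 higher and 2 lower with a trimmed mean (backgrounds of 18.3% and 14.4%), 11 and 1 with median centring (21.7% and 8.55%) and 10 and 2 with quantile normalization (16.7% and 17.2%). The 8 of 52 higher with a trimmed mean are 15.4%, the 11 with median centring 21.2% and the 10 with quantile normalization 19.2%, the last of them above its background.

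**Figure D1:**
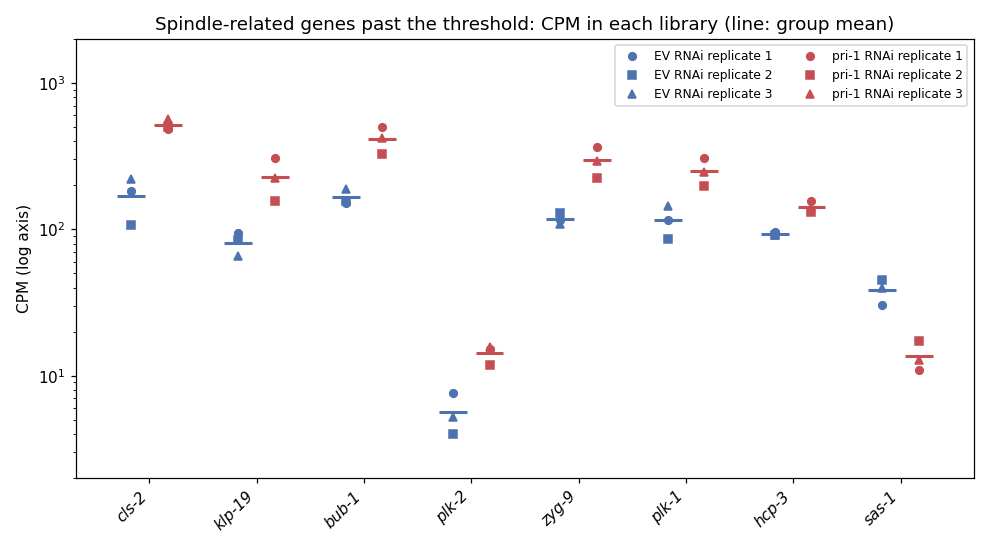
CPM on a log axis for the 8 genes past the threshold in each of the 6 libraries (blue, EV RNAi; red, *pri-1* RNAi; marker shape, replicate number), with a line at each group mean. The groups do not overlap for any of the 8 genes, and *sas-1*, at the right, is the gene that was lower in *pri-1* RNAi.

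The libraries of a group were uneven for these genes, and also, mostly less so, over all tested genes. The median ratio of highest to lowest library was 2.23 in EV and 1.93 in *pri-1* RNAi. Over all tested genes, with 0.5 CPM added, it was 1.80 and 1.47. Median log2 deviations from the gene's mean were 0.26 in EV replicate 2, -0.89 in EV replicate 3 and 0.69 in *pri-1* RNAi replicate 1. Over all tested genes they were 0.27, -0.49 and 0.20. EV replicate 2 was the highest EV library for 35 of the 52 tested genes and EV replicate 3 the lowest for 42. EV replicate 3 was the lowest of all 6 libraries for 41 genes, and *pri-1* RNAi replicate 1 the highest of its group for 42. The summed CPM of the 53 genes was 2879, 3527 and 2323 in EV replicates 1, 2 and 3 and 5559, 3589 and 4202 in *pri-1* RNAi replicates 1, 2 and 3. All 3 sums of the *pri-1* RNAi group were above those of the EV group, with EV replicate 2 and *pri-1* RNAi replicate 2 close to each other. These sums include the 8 genes past the threshold, among them *cls-2* (mean 170 CPM in EV and 515 CPM in *pri-1* RNAi) and *bub-1* (165 and 417 CPM). Of the 52 tested genes, 16 had estimates below 0, so the sums do not show a rise of the genes as a whole. The 100 most abundant genes took 28% of the CPM in EV replicate 3 and between 18.1% and 24.8% in the other libraries. For the 8 genes past the threshold, the highest EV library was 1.06 to 2.08 times the lowest (median 1.46), and for the 44 others 1.22 to 12.5 times (median 2.62). Because limma sets a difference against the spread within groups, this contrast follows in part from the calling itself. Without EV replicate 3, 7 genes were higher and 5 lower (2509 and 2993 of all 14801 tested genes). Without EV replicate 2, 7 were higher and 1 lower (2853 and 1357 of all tested genes). Without *pri-1* RNAi replicate 1, 4 were higher and 1 lower (1775 and 465 of all tested genes). With all libraries, 2564 of all tested genes were higher and 1471 lower.

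Marker genes of embryonic tissues were detected in every library, and their calls are to be read against the backgrounds of 17.3% higher and 9.94% lower. Of 13 maternal and germ plasm genes, 3 were higher and 1 lower, and their summed CPM was 127 to 268 in EV and 374 to 536 in *pri-1* RNAi. A large part of that difference was *mex-3*, at 29.3 to 43.9 CPM in EV and 153 to 233 CPM in *pri-1* RNAi. Of the 13 estimates, 10 were above 0 and 3 below. The sum of 10 body wall muscle genes, of which 1 was lower, was 4486 to 9078 in EV and 2858 to 5807 in *pri-1* RNAi. Among ciliated neuron genes 4 of 12 were lower, with sums of 152 to 346 and 111 to 154. Of 10 general neuronal genes 1 was higher and 2 were lower, of 8 tested epidermal genes 1 was higher and 3 were lower, and of 7 intestinal genes 1 was higher. The sum of the epidermal list, most of it *sqt-3*, was 4117 to 9075 CPM in EV and 1204 to 3508.5 CPM in *pri-1* RNAi. Yolk protein genes of the adult intestine differed mostly between libraries, with a sum of 782 CPM in EV replicate 1 and 13 to 103 in the other libraries, and limma called 0 of 6 (0 at an unadjusted p under 0.05). Only 2 of 9 sperm genes were expressed enough to test and both were higher, at sums of 1.09 to 2.28 and 4.09 to 6.51 CPM for the whole list, and *msd-1* and *msp-142* were at 0 in some libraries of both groups. In these whole embryos, fewer cells of a type and less RNA per cell cannot be told apart, and the part of embryonic stage and cell composition in the values below was not tested.

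The targeted gene *pri-1*, a neighbour of *hcp-3* on chromosome III, was at 41.2, 47.2 and 26.9 CPM in EV replicates 1, 2 and 3 and at 28.6, 28.7 and 24.3 CPM in *pri-1* RNAi replicates 1, 2 and 3. The groups overlapped at EV replicate 3, and the difference did not pass (log2 fold change -0.46 ± 0.29 SE, limma adjusted p = 0.285). The other primase subunit gene, *pri-2*, was higher (log2 fold change 1.19 ± 0.29 SE, limma adjusted p = 0.0208), a call lost without *pri-1* RNAi replicate 1 (adjusted p = 0.0797) and without *pri-1* RNAi replicate 3 (adjusted p = 0.0935).

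**Figure D2:**
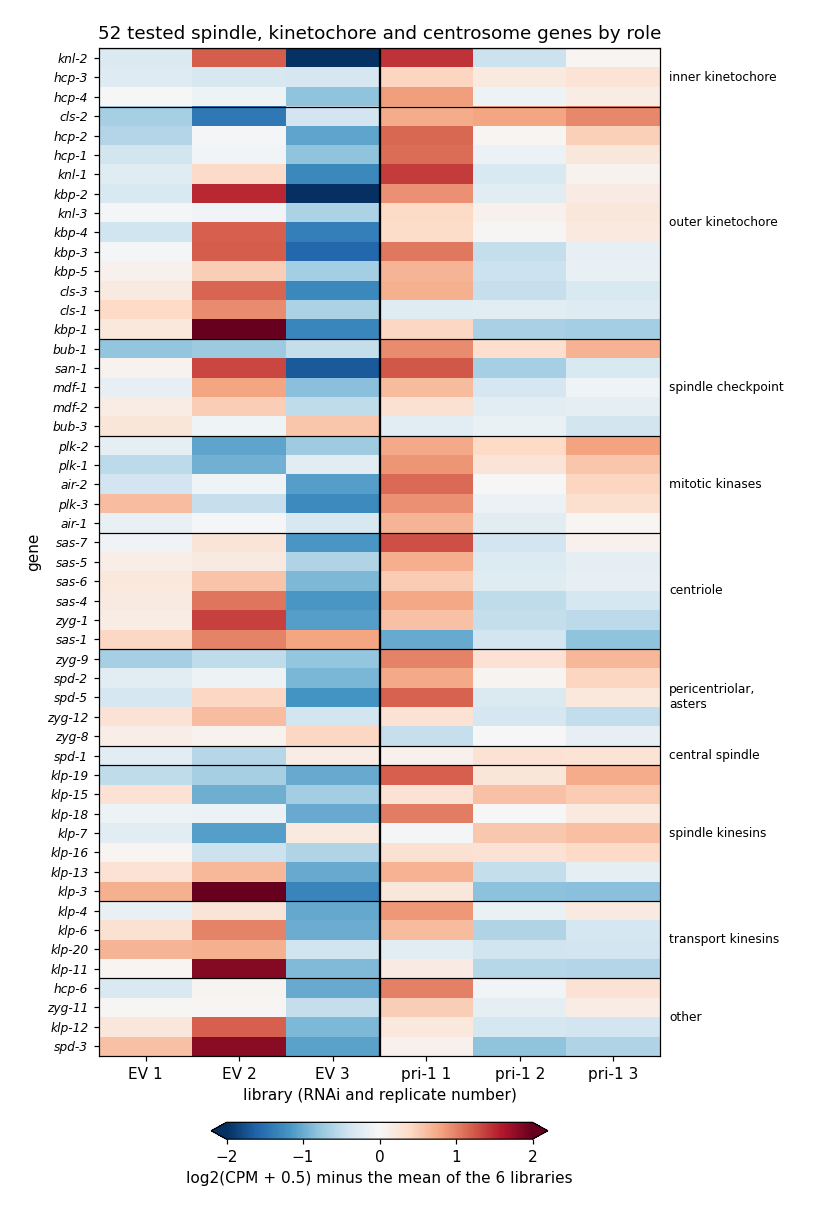
log2(CPM + 0.5) of each of the 52 tested genes (rows, by role) in the 6 libraries (columns), as the difference from the gene's own mean over the 6 libraries, with colours saturating at 2 log2 units. EV replicate 3 is blue in most rows and was the lowest of the 6 libraries for 41 genes, and *pri-1* RNAi replicate 1 is red in most rows and was the highest of its group for 42.

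At the inner kinetochore, the centromeric histone gene rose and the other genes did not pass. *hcp-3*, which encodes the centromeric histone H3 (CENP-A in other animals), lies at III:9615306-9616470 on the minus strand of WBcel235 (WBGene00001831). On that strand it is next to *pri-1*, whose annotated end is 1024 bases away with no other gene of the strand between them. The CPM of *hcp-3* was 96.1, 92.1 and 90.8 in EV replicates 1, 2 and 3 and 156, 132 and 139 in *pri-1* RNAi replicates 1, 2 and 3. The EV libraries lay close together and below every *pri-1* RNAi library. The mean rose from 93.0 ± 2.76 to 142.5 ± 12 (SD, n = 3 each), which is 1.53-fold, with a log2 fold change of 0.61 ± 0.19 (SE) and a limma adjusted p of 0.0472. This call was near the threshold and was lost whichever library was left out (adjusted p between 0.0614 and 0.187) and under each of the 3 other scalings (adjusted p between 0.0511 and 0.187). It was also lost with a pseudocount of 0.1 (adjusted p just above 0.05), without the variance trend (0.0822) and with the replicate number as a block (0.119).

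A second centromeric histone gene, *cpar-1*, is a close copy of *hcp-3*, so that reads may be shared between both. *cpar-1* was at 10.4, 9.99 and 10 CPM in EV replicates 1, 2 and 3 and at 31.8, 27.5 and 33.4 CPM in *pri-1* RNAi replicates 1, 2 and 3. It rose by 1.56 ± 0.26 (log2 fold change ± SE, limma adjusted p = 0.00513), without *pri-1* RNAi replicate 3 at an adjusted p of 0.0513. The sum of both genes was 106, 102 and 101 CPM in EV and 188, 160 and 173 CPM in *pri-1* RNAi, without overlap. The share of *cpar-1* in that sum was 9.75% to 9.94% in EV and 17% to 19.3% in *pri-1* RNAi. Of the other inner genes, *hcp-4* encodes the CENP-C protein that links this chromatin to the outer kinetochore, and *knl-2* encodes a protein needed to load the centromeric histone. *hcp-4* was at 46.9 to 82.5 CPM in EV and 76.6 to 147 CPM in *pri-1* RNAi (log2 fold change 0.59, limma adjusted p = 0.226). *knl-2* ranged from 14.5 to 136 CPM within the EV group alone, a 9.36-fold span that covered most of the *pri-1* RNAi range of 43.1 to 160 CPM.

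At the outer kinetochore, 1 of 12 genes passed, and it was *cls-2*, which rose most among all 52 genes. *cls-2* (WBGene00000549, III:9055048-9058895, plus strand) encodes a CLASP, a protein that promotes microtubule growth at kinetochores and in the central spindle. Its level was 182, 107 and 221 CPM in EV replicates 1, 2 and 3 and 482, 500 and 564 CPM in *pri-1* RNAi replicates 1, 2 and 3. The lowest *pri-1* RNAi library was more than the highest EV library by a wide margin, although EV replicate 2 was well below the other EV libraries. The mean rose 3.03-fold, from 170 ± 58.4 to 515 ± 43.4 CPM (SD, n = 3 each), with a log2 fold change of 1.66 ± 0.29 (SE) and a limma adjusted p of 0.00564. The call held in each of the 6 fits that left out a library and under all 3 scalings.

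The other CLASP genes did not pass. *cls-1* was at 25.8, 37.8 and 12.4 CPM in EV and 16.2 to 16.7 CPM in *pri-1* RNAi, with EV replicates above and below all 3. Its log2 fold change was -0.47 ± 0.42 (SE, limma adjusted p = 0.442), and without EV replicate 3 it was -0.91 (adjusted p = 0.0395). For *cls-3* the range was 10.8 to 61.3 CPM in EV and 19.6 to 44.8 CPM in *pri-1* RNAi. Whether the changes of *cls-2* and its relatives differ was not tested.

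*hcp-1* and *hcp-2* encode CENP-F-like proteins that bring CLS-2 to the kinetochore. *hcp-2* was at 38.9, 58.2 and 28.1 CPM in EV replicates 1, 2 and 3 and at 131, 60.7 and 82.5 CPM in *pri-1* RNAi replicates 1, 2 and 3. The groups did not overlap, but EV replicate 2 and *pri-1* RNAi replicate 2 lay close together. The log2 fold change was 1.11 ± 0.37 (SE, limma adjusted p = 0.0623), and it passed under all 3 scalings (adjusted p between 0.0087 and 0.0182) and without EV replicate 2 (adjusted p = 0.0208). *hcp-1* was at 100, 124 and 73.3 CPM in EV and at 279, 119 and 152 CPM in *pri-1* RNAi. Here EV replicate 2 was above *pri-1* RNAi replicate 2, and the log2 fold change of 0.82 ± 0.35 (SE) had a limma adjusted p of 0.127.

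The remaining outer genes belong to the network that binds microtubules directly. *knl-1* encodes its scaffold, *knl-3*, *kbp-1* and *kbp-2* encode subunits of the Mis12 complex, *kbp-3* and *kbp-4* subunits of the Ndc80 complex, and *kbp-5* a protein that binds KNL-1. *knl-3* was at 52.9 to 80.4 CPM in EV and 87.7 to 109 CPM in *pri-1* RNAi, with no overlap and a log2 fold change of 0.48 (limma adjusted p = 0.191). *knl-1* had a log2 fold change of 0.77 (limma adjusted p = 0.339) with overlapping groups. The *kbp* genes had log2 fold changes between -0.61 and 0.57 and limma adjusted p-values between 0.614 and 0.918. For *kbp-1*, *kbp-2*, *kbp-3* and *kbp-4*, EV replicate 2 was 6.16 to 12.5 times EV replicate 3. In all 4 of them EV replicate 2 was the highest and EV replicate 3 the lowest library of the EV group, and the sign of the estimate turned when at least 1 of these libraries was left out.

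Of 5 checkpoint genes, *bub-1* rose and the others did not pass. *bub-1* (WBGene00000275, I:7251941-7255223, plus strand) encodes a kinase of the outer kinetochore that acts in the checkpoint and, in this species, also in chromosome alignment and segregation. The CPM of *bub-1* was 151, 157 and 188 in EV replicates 1, 2 and 3 and 503, 328 and 420 in *pri-1* RNAi replicates 1, 2 and 3. The highest EV library was well below the lowest *pri-1* RNAi library. The mean rose 2.52-fold, from 165 ± 19.5 to 417 ± 87.1 CPM (SD, n = 3 each), with a log2 fold change of 1.32 ± 0.22 (SE) and a limma adjusted p of 0.00533. It passed without each library in turn and under all 3 scalings.

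*bub-3*, whose product is the partner of BUB-1 at kinetochores, was at 122, 97.1 and 152 CPM in EV replicates 1, 2 and 3 and at 89.1, 94.0 and 80.1 CPM in *pri-1* RNAi replicates 1, 2 and 3. All 3 *pri-1* RNAi libraries were below the EV libraries, and the estimate of -0.47 ± 0.23 (log2 fold change ± SE) did not pass (limma adjusted p = 0.174). *mdf-1* and *mdf-2*, which encode the worm Mad1 and Mad2 proteins, and *san-1*, which encodes the worm Mad3, had log2 fold changes of 0.13, -0.08 and 0.18 with overlapping groups. *san-1* spanned 3.37 to 31.1 CPM within the EV group.

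Of the 5 mitotic kinase genes, both Polo kinase genes of the embryo passed, and all 5 estimates were above 0. *plk-1* (WBGene00004042, III:8101348-8104069, plus strand) encodes the Polo-like kinase of mitotic entry, centrosome maturation and polarity. Its level was 115, 85.8 and 144 CPM in EV replicates 1, 2 and 3 and 308, 199 and 245 CPM in *pri-1* RNAi replicates 1, 2 and 3. The groups did not overlap, and EV replicate 3, low for most of these genes, was the highest EV library here. The mean rose 2.18-fold, from 115 ± 29.1 to 251 ± 54.9 CPM (SD, n = 3 each), with a log2 fold change of 1.13 ± 0.27 (SE) and a limma adjusted p of 0.0188. The call was lost without EV replicate 1 (adjusted p = 0.0693) or *pri-1* RNAi replicates 1 (0.0724) or 3 (0.0848), and with trimmed-mean scaling (0.0838) and median centring (0.0551).

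*plk-2* (WBGene00004043, I:2755540-2758204, minus strand), a close copy that acts mainly in the meiotic germline and overlaps with PLK-1 in the embryo, was at 7.65, 4.0 and 5.21 CPM in EV replicates 1, 2 and 3 and at 15.3, 11.8 and 15.7 CPM in *pri-1* RNAi replicates 1, 2 and 3. The groups did not overlap, at a level far below that of *plk-1*. The log2 fold change was 1.30 ± 0.36 (SE) with a limma adjusted p of 0.0312, and the call held in 1 of the 6 fits that left out a library, the fit without EV replicate 3 (adjusted p between 0.0519 and 0.159 in the others). With the replicate number as a block its adjusted p was 0.0634. Because reads of near-identical stretches may be divided between the copies, the value of the rarer copy is less certain, and *plk-2* was 3.49% to 6.22% of the summed CPM of both genes.

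*air-2* encodes Aurora B, the kinase of the chromosomal passenger complex. *air-2* was at 60.4, 74.1 and 36.2 CPM in EV replicates 1, 2 and 3 and at 173, 78.2 and 106 CPM in *pri-1* RNAi replicates 1, 2 and 3. The groups did not overlap, but *pri-1* RNAi replicate 2 was just above EV replicate 2. The log2 fold change of 1.04 ± 0.38 (SE) had a limma adjusted p of 0.0771, and it passed under all 3 scalings (adjusted p between 0.0134 and 0.0244) and without EV replicate 2 (adjusted p = 0.036). *air-1*, which encodes Aurora A of the centrosome, was at 46.9 to 57.4 CPM in EV and 51.0 to 94.3 CPM in *pri-1* RNAi (log2 fold change 0.34, limma adjusted p = 0.414). *plk-3* was at 1.18 to 5.75 CPM in EV and 3.26 to 7.20 CPM in *pri-1* RNAi.

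**Figure D3:**
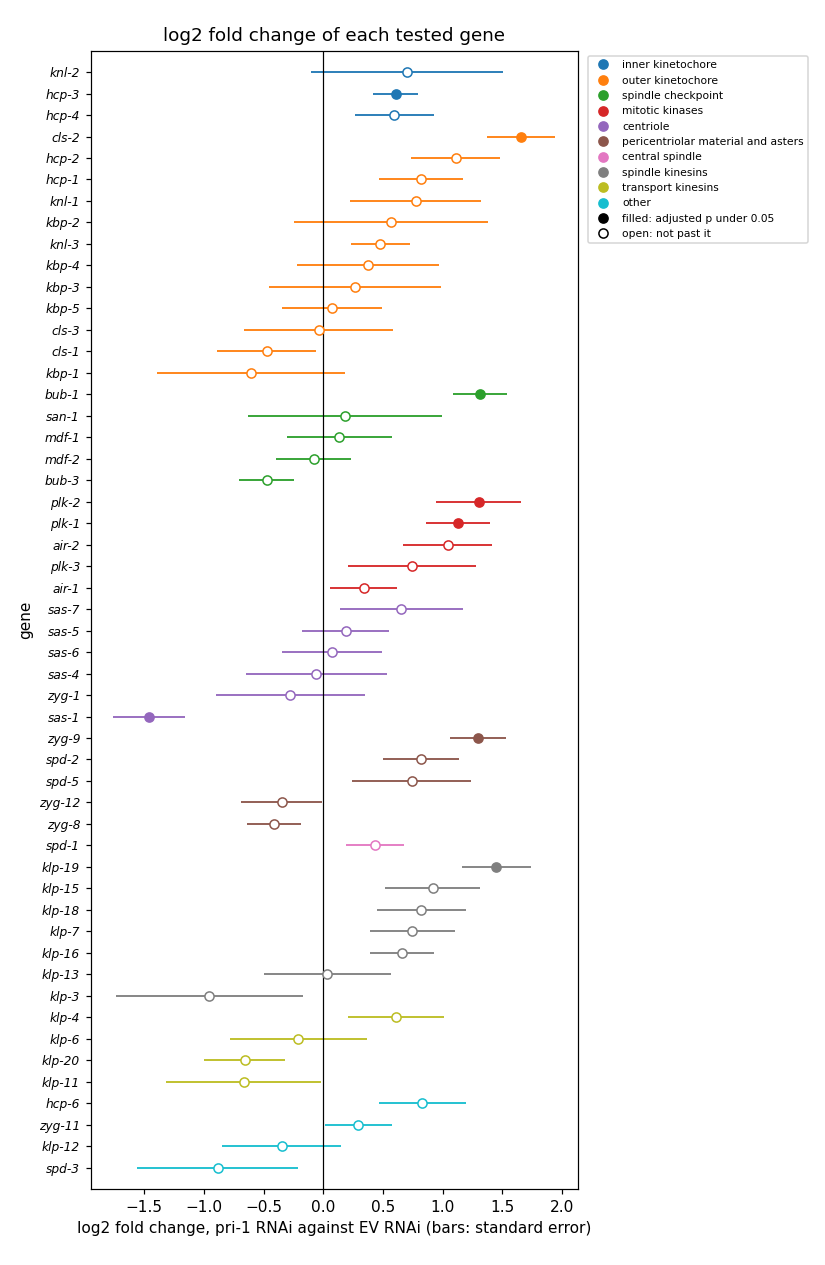
log2 fold change of *pri-1* RNAi against EV RNAi for each of the 52 tested genes, coloured by role, with the standard error as a bar; filled points passed the adjusted p threshold and open points did not. The 7 filled points to the right lie between 0.61 and 1.66, and *sas-1* is the filled point to the left, at -1.46.

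Of the 6 centriole genes, *sas-1* fell, and limma called 0 as higher (0 at an unadjusted p under 0.05). *sas-1* (WBGene00013742, III:12699494-12711136, plus strand) encodes a C2-domain protein that keeps centrioles stable once they are built, and centrioles also become the basal bodies of cilia in ciliated neurons. *sas-1* was at 30.4, 45.3 and 39.5 CPM in EV replicates 1, 2 and 3 and at 11, 17.3 and 12.7 CPM in *pri-1* RNAi replicates 1, 2 and 3. Every *pri-1* RNAi library was below every EV library. The mean was 38.4 ± 7.54 CPM in EV and 13.7 ± 3.27 CPM in *pri-1* RNAi (SD, n = 3 each), 2.81-fold lower, with a log2 fold change of -1.46 ± 0.30 (SE) and a limma adjusted p of 0.011. It passed under all 3 scalings and was lost without *pri-1* RNAi replicate 3 (adjusted p = 0.0658). Of 12 ciliated neuron markers 4 were lower and 10 had estimates below 0, with a median log2 fold change of -1.17, and their part in the value of *sas-1* was not tested.

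The other centriole genes encode the duplication pathway. *zyg-1* encodes a kinase with the role of Plk4, *sas-5* and *sas-6* the proteins that form the core of the new centriole, *sas-4* the CPAP protein that adds centriolar microtubules, and *sas-7* a protein upstream of them. Their log2 fold changes lay between -0.27 and 0.65, with limma adjusted p-values between 0.391 and 0.953 and overlapping groups in each case. EV replicate 3 was the lowest of all 6 libraries for *sas-4*, *sas-5*, *sas-6*, *sas-7* and *zyg-1*.

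Among genes of the pericentriolar material and the asters, *zyg-9* rose. *zyg-9* (WBGene00006994, II:8457818-8464512, plus strand) encodes the worm member of the XMAP215 family, which speeds microtubule growth from centrosomes. The CPM of *zyg-9* was 116, 129 and 108 in EV replicates 1, 2 and 3 and 366, 226 and 294 in *pri-1* RNAi replicates 1, 2 and 3. The EV libraries differed little, and the lowest *pri-1* RNAi library was far above them. The mean rose 2.51-fold, from 118 ± 10.6 to 295 ± 70.0 CPM (SD, n = 3 each), with a log2 fold change of 1.30 ± 0.23 (SE) and a limma adjusted p of 0.00632. It passed without each library in turn and under all 3 scalings.

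*spd-2* and *spd-5* encode the proteins on which the pericentriolar material is built. *spd-2* was at 32.0, 34.6 and 19.7 CPM in EV replicates 1, 2 and 3 and at 63.5, 38.7 and 50.3 CPM in *pri-1* RNAi replicates 1, 2 and 3, without overlap. Its log2 fold change of 0.82 ± 0.32 (SE) had a limma adjusted p of 0.0943, and it passed under all 3 scalings (adjusted p between 0.0135 and 0.0347). *spd-5* was at 22.2 to 68.4 CPM in EV and 42.1 to 117 CPM in *pri-1* RNAi (log2 fold change 0.74, limma adjusted p = 0.314). *zyg-8*, which encodes a doublecortin-related kinase of spindle positioning, was below its EV levels of 84.0 to 107 CPM in all *pri-1* RNAi libraries, at 58.0 to 80.9 CPM (log2 fold change -0.41, limma adjusted p = 0.223). *zyg-12*, which encodes the HOOK protein that ties the centrosome to the nucleus, overlapped between groups (log2 fold change -0.35).

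*spd-1*, which encodes the PRC1-type bundling protein of the central spindle, was at 91.5, 72.1 and 119 CPM in EV replicates 1, 2 and 3 and at 114, 131 and 130 CPM in *pri-1* RNAi replicates 1, 2 and 3. EV replicate 3 was above *pri-1* RNAi replicate 1, and the log2 fold change of 0.43 ± 0.24 (SE) had a limma adjusted p of 0.228.

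Of the 7 tested spindle kinesins, *klp-19* rose. *klp-19* (WBGene00002229, III:13302717-13307259, minus strand) encodes a kinesin-4 carried on chromosomes that acts in their alignment. Its level was 93.7, 84.3 and 65.7 CPM in EV replicates 1, 2 and 3 and 307, 157 and 223 CPM in *pri-1* RNAi replicates 1, 2 and 3. All EV libraries were below all *pri-1* RNAi libraries, which themselves differed by 1.95-fold. The mean rose 2.82-fold, from 81.2 ± 14.2 to 229 ± 75.1 CPM (SD, n = 3 each), with a log2 fold change of 1.45 ± 0.29 (SE) and a limma adjusted p of 0.00956. It passed under all 3 scalings and had an adjusted p of 0.0518 without *pri-1* RNAi replicate 3.

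*klp-7* encodes the kinesin-13 that shortens microtubules, an activity opposite to that of ZYG-9. *klp-7* was at 132, 71.2 and 175 CPM in EV replicates 1, 2 and 3 and at 150, 223 and 233 CPM in *pri-1* RNAi replicates 1, 2 and 3. EV replicate 3 was above *pri-1* RNAi replicate 1, and the log2 fold change of 0.75 ± 0.36 (SE) had a limma adjusted p of 0.165. Without EV replicate 3 it was 1.03 with an adjusted p of 0.0443. *klp-18*, which encodes the kinesin-12 that makes the acentrosomal meiotic spindle bipolar, was at 22.9 to 43.2 CPM in EV and 46.8 to 95.2 CPM in *pri-1* RNAi, without overlap (log2 fold change 0.82, limma adjusted p = 0.145).

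*klp-15* and *klp-16* encode kinesin-14 motors so alike that their reads cannot be divided with certainty. *klp-15* was at 14.3, 5.68 and 6.97 CPM in EV replicates 1, 2 and 3 and at 14.2, 17.7 and 16.6 CPM in *pri-1* RNAi replicates 1, 2 and 3 (log2 fold change 0.92 ± 0.40 SE, limma adjusted p = 0.131). The values overlapped at EV replicate 1. The sum of both genes did not overlap, at 41.8, 25.3 and 24.4 CPM in EV and 47.2, 50.4 and 52.1 CPM in *pri-1* RNAi, a 1.64-fold difference in means with a two-sided exact permutation p of 0.1, the smallest that 3 against 3 libraries can give. *klp-16* alone had a log2 fold change of 0.66 (limma adjusted p = 0.112) and no overlap.

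*klp-3*, another kinesin-14 gene, was at 33.5, 84.1 and 7.82 CPM in EV replicates 1, 2 and 3 and at 23.7, 11.2 and 11.2 CPM in *pri-1* RNAi replicates 1, 2 and 3. The EV group contained both the highest and the lowest library, a 10.8-fold span, and the log2 fold change of -0.95 ± 0.79 (SE) had a limma adjusted p of 0.413. Without EV replicate 3 it was -1.85 with an adjusted p of 0.0217. *klp-13* was at 1.51 to 5.92 CPM in EV and 2.41 to 6.05 CPM in *pri-1* RNAi. *klp-17* was the gene below the expression limit, at 0.0979 to 0.353 CPM in EV and 0.339 to 0.557 CPM in *pri-1* RNAi, with a two-sided exact permutation p of 0.2.

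The transport kinesins take part in intracellular or ciliary transport in differentiated cells, and limma called 0 of 4 (0 at an unadjusted p under 0.05). *klp-11* and *klp-20* encode kinesin-II subunits that move cargo in cilia, and *klp-4* and *klp-6* encode kinesin-3 motors of neurons. *klp-20* was at 32.8 to 70.8 CPM in EV and 32.8 to 37.3 CPM in *pri-1* RNAi (log2 fold change -0.66, limma adjusted p = 0.191). It passed as lower with trimmed-mean scaling (adjusted p = 0.0355) and without EV replicate 3 (adjusted p = 0.0121). For *klp-11* the estimate was -0.67, for *klp-6* -0.21 and for *klp-4* 0.61, with limma adjusted p-values between 0.302 and 0.823. The part of the ciliated neuron markers, whose summed CPM is given above, was not tested here either.

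Of the 4 genes that share these names but have other functions, limma called 0 (0 at an unadjusted p under 0.05). *hcp-6* encodes a condensin II subunit and was at 96.8, 124 and 59.2 CPM in EV replicates 1, 2 and 3 and at 240, 115 and 145 CPM in *pri-1* RNAi replicates 1, 2 and 3. EV replicate 2 was above *pri-1* RNAi replicate 2, and the log2 fold change was 0.83 ± 0.36 (SE, limma adjusted p = 0.134). *spd-3*, which encodes a mitochondrial protein, was at 3.07, 7.74 and 0.633 CPM in EV replicates 1, 2 and 3 and at 2.0, 0.858 and 1.06 CPM in *pri-1* RNAi replicates 1, 2 and 3. EV replicates 2 and 3 lay on opposite sides of the whole *pri-1* RNAi group, and the log2 fold change was -0.89 ± 0.68 (SE, limma adjusted p = 0.376), or -1.64 without EV replicate 3 (adjusted p = 0.025). *zyg-11*, which encodes a substrate receptor of a cullin-2 ubiquitin ligase, and *klp-12*, which encodes a kinesin-4 of axons, had log2 fold changes of 0.29 and -0.35.

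On the scale of CPM per kilobase of annotated exon, which allows levels of different genes to be compared, *bub-3* (103), *hcp-3* (91.7) and *kbp-4* (76.9) were highest in the EV mean. The rank of *kbp-4* rested on EV replicate 2, without which its mean was 37.8 CPM per kilobase. In the *pri-1* RNAi mean *cls-2* (154), *hcp-3* (140) and *bub-1* (136) were highest. *cls-2* and *bub-1* were at 50.8 and 54 CPM per kilobase in EV, below *bub-3*, and above it in *pri-1* RNAi. By chromosome, 17 of the 53 genes (32.1%) are on III, which holds 15.2% of the tested genes with a known position. Of these 17 genes, 4 were higher and 1, *sas-1*, was lower. Calls by chromosome are to be read against the backgrounds of 17.3% higher and 9.94% lower over all tested genes. Chromosome I holds 13 of the genes, of which 2 passed, and chromosome II holds 8, of which 1 passed.

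Genes that work with these proteins but have other names were listed by role, and 76 of 78 listed genes were tested, while *gtap-1* and *sep-1* were not analysed here. Of the 76, 10 were higher (13.2% against the background of 17.3%) and 3 lower (3.95% against 9.94%), and the median log2 fold change was 0.36. In the list of the chromosomal passenger complex and central spindle, 3 of 5 genes were higher. *icp-1*, which encodes the INCENP subunit that binds Aurora B, was at 129, 113 and 110 CPM in EV and at 439, 277 and 388 CPM in *pri-1* RNAi (log2 fold change 1.63 ± 0.23 SE, limma adjusted p = 0.00259). *csc-1*, which encodes the worm Borealin, was at 66.5 to 67.1 CPM in EV and at 125 to 154 CPM in *pri-1* RNAi (log2 fold change 1.09, limma adjusted p = 0.00647, or 0.0555 without *pri-1* RNAi replicate 3). *cyk-4*, which encodes the GTPase-activating subunit of centralspindlin, was at 114 to 205 CPM in EV and 307 to 421 CPM in *pri-1* RNAi (log2 fold change 1.15, limma adjusted p = 0.0189), a call lost without EV replicate 1 (0.0546) or *pri-1* RNAi replicates 1 (0.0737) or 3 (0.0852), with trimmed-mean scaling (0.0945) and with median centring (0.0636). In all 3 genes the groups did not overlap. *bir-1*, which encodes the Survivin subunit of the passenger complex, was at 54.9 to 116 CPM in EV and 68.1 to 116 CPM in *pri-1* RNAi (log2 fold change 0.06, limma adjusted p = 0.922), and *zen-4*, which encodes the kinesin of centralspindlin, had a log2 fold change of 0.51 (limma adjusted p = 0.339), with overlapping groups for both.

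In the dynein and spindle positioning list, 2 of 14 genes were higher and 1 lower. *dhc-1*, the dynein heavy chain gene, was at 125, 83.6 and 149 CPM in EV replicates 1, 2 and 3 and at 412, 381 and 484 CPM in *pri-1* RNAi replicates 1, 2 and 3. As for *cls-2*, EV replicate 2 was lowest and the groups were far apart (log2 fold change 1.87 ± 0.26 SE, limma adjusted p = 0.00233). *dli-1*, a light intermediate chain gene, rose (log2 fold change 1.26, limma adjusted p = 0.0139), and *dlc-1*, a light chain gene, fell (log2 fold change -0.86, limma adjusted p = 0.0182). The *dli-1* call was lost without EV replicate 1 (0.0524) or *pri-1* RNAi replicate 3 (0.0808), with trimmed-mean scaling (0.0764) and with median centring (0.0502). That of *dlc-1* was lost without EV replicate 1 (0.0774) or *pri-1* RNAi replicates 1 (0.0655) or 3 (0.106) and with median centring (0.193).

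Among microtubule regulators, 0 of 8 rose at the limma adjusted p threshold (1, *bmk-1*, was higher at an unadjusted p under 0.05) and 2 fell, both genes of end-binding proteins that track growing microtubule tips. *ebp-1* was at 112, 66.4 and 103 CPM in EV and 38.7, 40.0 and 30.6 CPM in *pri-1* RNAi (log2 fold change -1.33 ± 0.27 SE, limma adjusted p = 0.0108). *ebp-2* was at 153 to 215 CPM in EV and 92.3 to 130 CPM in *pri-1* RNAi (log2 fold change -0.83, limma adjusted p = 0.0351). Both calls were lost with median centring (0.0778 for *ebp-1* and 0.319 for *ebp-2*), that of *ebp-1* also without EV replicate 1 (0.0599) or *pri-1* RNAi replicate 3 (0.0671), and that of *ebp-2* with trimmed-mean scaling (0.114) and in 4 of the 6 fits that left out a library (0.0565 to 0.162), those without EV replicates 1 or 3 or *pri-1* RNAi replicates 1 or 3. *bmk-1*, the kinesin-5 gene, had a log2 fold change of 1.11 in this list (limma adjusted p = 0.0673), and it passed under all 3 scalings (adjusted p between 0.0147 and 0.0256) and without EV replicate 2 (adjusted p = 0.0313). *smc-4*, a condensin gene, had a log2 fold change of 1.32 ± 0.50 (SE) and did not pass (limma adjusted p = 0.0910). Its groups overlapped, with EV replicate 2 at 144 CPM and *pri-1* RNAi replicate 2 at 136 CPM. *tbg-1*, the gamma-tubulin gene, did not pass either (log2 fold change 0.85 ± 0.35 SE, limma adjusted p = 0.115), without overlap. Both passed as higher under all 3 scalings (adjusted p between 0.0122 and 0.0414 and between 0.0169 and 0.0388).

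The other lists had 1 gene higher each. *tpxl-1*, which encodes the activator of Aurora A on the spindle, was at 31.5 to 58.0 CPM in EV and 106 to 137 CPM in *pri-1* RNAi (log2 fold change 1.41, limma adjusted p = 0.0105, or 0.0617 without *pri-1* RNAi replicate 3). *cdk-1*, the mitotic cyclin-dependent kinase gene, was at 84.5 to 105 CPM in EV and 162 to 277 CPM in *pri-1* RNAi (log2 fold change 1.13, limma adjusted p = 0.0138), a call lost without EV replicate 1 (0.0567) or *pri-1* RNAi replicate 3 (0.0697). *scc-1*, which encodes the mitotic kleisin of cohesin, was at 39.2 to 47.5 CPM in EV and 95.5 to 183 CPM in *pri-1* RNAi (log2 fold change 1.62, limma adjusted p = 0.00548), and it passed without each library in turn. *gfi-3*, a gene of the anaphase promoting complex, had a log2 fold change of 1.25 (limma adjusted p = 0.0118, or 0.0596 without *pri-1* RNAi replicate 3). These were 1 of 8 genes of the asters, 1 of 5 cyclins and *cdk-1*, 1 of 12 condensin and cohesin genes and 1 of 15 genes of the anaphase promoting complex, and *cpar-1* was 1 of 9 kinetochore partners. In each of these genes the groups did not overlap.

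**Figure D4:**
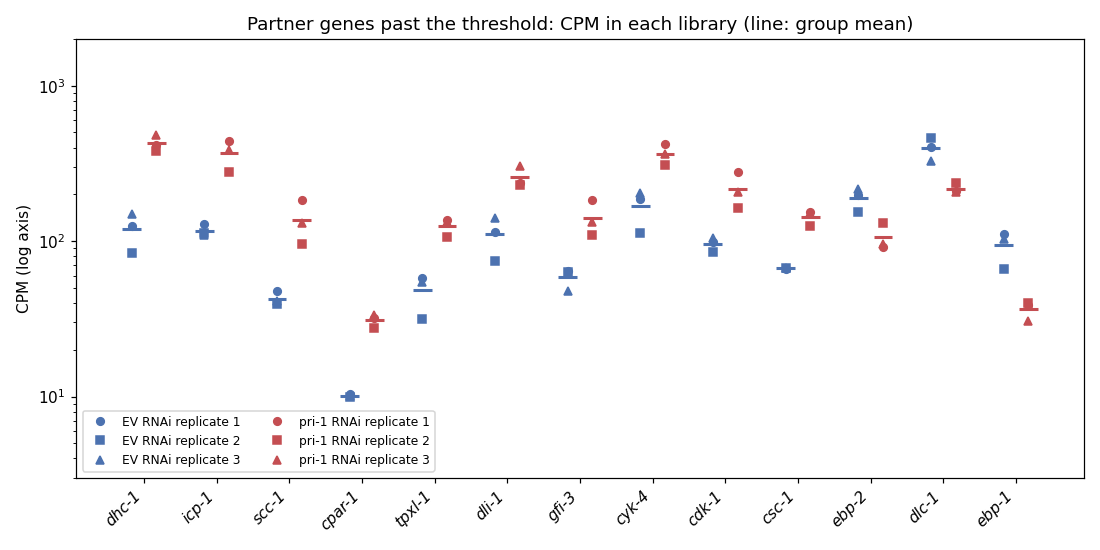
CPM on a log axis for the 13 partner genes past the threshold in each of the 6 libraries (blue, EV RNAi; red, *pri-1* RNAi; marker shape, replicate number), with a line at each group mean. *dhc-1* shows the largest rise of the 13, at a log2 fold change of 1.87, and *dlc-1*, *ebp-2* and *ebp-1* at the right are the genes that were lower in *pri-1* RNAi.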

How the data were processed

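RNA of whole embryos was measured by paired-end RNA-seq in 3 EV RNAi and 3 *pri-1* RNAi libraries. The authors trimmed reads with Trimmomatic 0.36, assigned them to the Ensembl WBcel235 transcriptome with Salmon 1.4.0, summed transcripts into genes with tximport and deposited CPM, which add up to 1000000 in each library and carry no further scaling. The submitters' processing notes also name edgeR 3.32.1, whose results are not in the deposited CPM. Salmon divides reads between near-identical copies by estimate, so single values of such genes are uncertain. Of 19933 genes, 166 were at 0 in every library.

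Groups came from the labels. The 14801 genes that reached 0.5 CPM in 3 or more libraries were tested with limma (version 3.58.1, under R 4.3.3, with lmFit and eBayes, trend set) on log2(CPM + 0.5) over all 6 libraries without covariates, with Benjamini-Hochberg adjustment over all tested genes and a threshold of 0.05. The pseudocount of 0.5 makes fold changes of low genes too small. Exact two-sided permutation tests of 3 against 3 libraries cannot go below 0.1. Low CPM values were multiples of steps of 0.00617 to 0.00815, but only 93.7% to 95.2% of values up to 20 steps were within 0.02 of a whole multiple, so read counts and total depth were not recovered and no count test was run. If a step is 1 read, 3 reads are 0.0185 to 0.0244 CPM, and 0.0370 to 0.0489 CPM if a read is a double step, which covers counting error only.

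Alternatives were pseudocounts of 0.1 and 1, no filter, trimmed-mean scaling, median centring, quantile normalization, no trend, a block for the replicate number or for the library number, and each library left out in turn. The members, role groups, partner lists, marker lists and tests were chosen with earlier results of these data known. Values in each library are given for members past the threshold, for the 6 others with the largest estimates and the 6 with the highest mean CPM, and other members are given by range, with *spd-2* and *cls-1* given in more detail after their values were seen. Of each partner list up to 4 genes with the smallest p-values could be named, and *bir-1*, the remaining gene of its list, was given outside this rule. Symbols were matched to Ensembl release 115 for coordinates (14203 of 14801 tested genes). On simulated data, limma called 25 of 68 genes changed by 1 log2 unit, 50 of 66 changed by 2 and 59 of 66 changed by 3, with 13 calls among unchanged genes. The simulation gave both groups the spread of the *pri-1* RNAi libraries and drew each value independently. In the data the EV libraries were more uneven (median ratio of highest to lowest library 1.80, against 1.47 in *pri-1* RNAi, over tested genes). The simulated rates are therefore not those of these data. Tables and figures used Python 3.11.15, numpy 2.4.6, pandas 2.3.3 and matplotlib 3.10.9.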

Additional observations from a re-analysis of the deposited data

How the results depend on the processing

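No called member turned its sign under any of the 15 alternatives, while 20 of the 52 tested members, none of them called, did under at least 1. For called members most of this was fixed in advance. Their groups did not overlap, so no fit without a library or with another pseudocount could turn the sign. Without the filter or the trend, or with the replicate number as a block, the estimate is the same by design. The count of members higher, 7, became 11 with median centring and 24 with the library number as a block, and 3 to 7 when a library was left out. The 24 are 46.2% of the 52 tested members, a larger share than the 4159 of 14801 tested genes that were higher in that fit. The count of members lower, 1, became 2 with trimmed-mean scaling and 2 with quantile normalization, and 0 to 5 when a library was left out. Of the 8 called members, 3 (*bub-1*, *cls-2* and *zyg-9*) passed in all 6 fits without a library and 6 passed under all 3 scalings. Over all genes, the 2564 higher became 4159 with the library number as a block and 1437 to 2853 when a library was left out, and the 1471 lower became 2552 with quantile normalization and 273 to 2993 when a library was left out. The 10 partner genes higher became 17 with quantile normalization, 34 with the library number as a block and 3 to 14 when a library was left out, and the 3 lower became 0 with median centring and 0 to 4 when a library was left out. Of all calls, 63.5% were higher, against 56.0% after trimmed-mean scaling, 71.7% after centring on medians and 49.2% after quantile normalization, and median centring moved the median of all genes up by 0.21. The cause of these moves was not tested. The edgeR and DESeq2 alternatives were not run because whole reads were not recovered. A fit without a library that leaves 2 in a group takes its spread from both groups. With 3 libraries a group, differences of the size of 1 log2 unit can be missed. The simulation, whose rates are not those of these data, called 25 of 68 such genes.

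Deviations from the group means correlated over genes at 0.0402, -0.323 and 0.458 between libraries of replicate numbers 1, 2 and 3. EV replicate 2 correlated best with *pri-1* RNAi replicate 1 (0.517). Such correlations cannot show whether libraries of the same number were prepared together, and the labels do not say. With the replicate number as a block, 5 members were higher and 1 lower, of all genes 2110 were higher and 1043 lower, and of the partners 10 were higher and 2 lower; *hcp-3*, *plk-2* and *ebp-2* lost their calls. The numbers in the library names of the sample descriptions pair EV replicates 1 and 3 with *pri-1* RNAi replicates 1 and 2 (correlations of 0.0402 and 0.372). EV replicate 2 and *pri-1* RNAi replicate 3 are each alone in their block, so they add nothing to the group estimates of that fit. With the library number as a block, which thus compares the paired libraries only, the estimate of *klp-3* was 0.00018 in place of -0.95.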
